A study of Homo sapiens with 6 samples.

Results

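The MYC, MAX and MXD network was examined in OCI-AML3, a human line derived from acute myeloid leukaemia that is known to carry a mutant NPM1 allele. The network was taken as 10 genes, matched by NCBI symbol to the Entrez identifiers of a table of 28307 genes, and all 10 were found in it. They are the activators MYC and MYCN, the shared partner MAX, the antagonists MXD1, MXD3, MXD4, MXI1, MNT and MGA, and MLX, the partner at the centre of a parallel arm. Total RNA was sequenced from 3 libraries of cells transfected with an siRNA against mutant NPM1 (siNPM1c) and from 3 libraries of cells given a control siRNA (siControl). Both siRNAs were delivered with Lipofectamine RNAiMAX at 10 nM, and cells were collected on day 3. All 6 libraries came from the same line, carry the same genotype label (WT) and the same batch label. The labels do not say whether the replicates of a group were separate cultures, so the p-values cover the variation among libraries only, and that variation may be technical. In bulk RNA, fewer cells of a type and less RNA per cell cannot be told apart, and protein was not measured.

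MYC is a basic helix-loop-helix leucine zipper transcription factor that binds DNA only after pairing with MAX. The pair reads the E-box and recruits acetyltransferases and elongation factors, and its known targets serve ribosome assembly, nucleotide synthesis and growth. The proteins of the MXD genes, MXI1, MNT and MGA compete for MAX and for the same sites but recruit corepressors, so that the balance between MYC and its antagonists is thought to set the output of the network. In myeloid cells the exchange of MYC for MXD1 on MAX is a textbook event of terminal differentiation. MLX does for the glucose-sensing factors MLXIP and MLXIPL what MAX does for MYC, and it can also pair with MNT, MXD1 and MXD4.

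The E-box core CACGTG, which is its own reverse complement and is therefore the same on both strands, was searched for in the 250 bases before the RefSeq gene starts (GRCh38.p14). A window was on hand for 9 members, MYCN among them, with 14 windows in all. None was on hand for MYC, which was therefore not searched. The core lay in the windows of MLX, MNT and MXD4. It lay in 11.3% of the 10195 tested genes that have a window and in 7.73% of all genes that have one. The member sites are shown with the sites of 5 genes from the target lists described later, because the activating and the repressing pairs of proteins are both known to read these letters. Each is written 5′ to 3′ on the strand of its gene, with the core in capitals, and lies at chr17:42567038-42567067 (plus strand) for MLX, chr17:2401236-2401265 (minus) for MNT, chr4:2262330-2262359 (minus) for MXD4, chr2:10448024-10448053 (minus) for ODC1, chr11:18394464-18394493 (plus) for LDHA, chr12:101280083-101280104 (plus) for UTP20, chr2:74835009-74835038 (plus) for HK2 and chr10:6202812-6202841 (plus) for PFKFB3.
MLX: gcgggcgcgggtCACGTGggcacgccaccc
MNT: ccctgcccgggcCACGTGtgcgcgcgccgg
MXD4: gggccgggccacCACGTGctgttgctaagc
ODC1: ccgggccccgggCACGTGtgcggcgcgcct
LDHA: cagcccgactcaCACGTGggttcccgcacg
UTP20: cttttttccgtcCACGTGaccc
HK2: ttccggcgagagCACGTGgagagaatcgtg
PFKFB3: caccctcctcccCACGTGgaagggggctgg
The core starts 50 bases before the gene start in MLX, 193 in MNT and 238 in MXD4. LDHA and HK2 hold the core more than once, and the site nearest to the start is shown. Of these members, MLX and MXD4 fell and MNT rose in siNPM1c cells. A match to these letters is a description of the sequence and does not show that any of the proteins sat there.

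Total counts ran from 15338450 to 25190122 per library in the siNPM1c group and from 15075235 to 23828944 in the siControl group. Ribosomal RNA genes took 69.4% to 71.1% of the counts in siNPM1c libraries, against 63.0% to 64.5% in siControl libraries, which left 3414688 to 5358525 and 4372104 to 6695652 counts for protein-coding genes. NPM1, the siRNA target, stood at 23.2 ± 1.03 CPM in siNPM1c libraries, against 50.1 ± 0.985 CPM in siControl libraries (SD, n = 3 each), and reads of the mutant and wild-type alleles were counted together. CPM here means counts scaled to the library size after TMM adjustment (edgeR's cpm). Of 7 blast markers, CD33, ANPEP, PTPRC, SPI1 and FLT3 were detected in every library, while CD34 (8 to 19 counts) and KIT (0 to 2) were too low to be tested. SPI1 rose by 0.64 ± 0.03 and ANPEP by 0.22 ± 0.06 on the log2 scale (SE), the second without a call when siNPM1c replicate 1 was left out (adjusted p = 0.0987), and PTPRC fell (-0.57 ± 0.05). Of 14 markers of other cell types, 10 were too low to be tested and CD3D and HBB were at 0 in every library, while PECAM1 and NCAM1, the 2 called, stood at 52.6 ± 3.82 and 49.3 ± 0.833 CPM in siNPM1c libraries, against 43.0 ± 0.620 and 44.1 ± 1.49 CPM in siControl libraries. The summed level of that list was 98.8 to 108 CPM in siNPM1c libraries and 87.7 to 90.9 CPM in siControl libraries, and its part in the results below was not tested.

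Of the 9 members that could be tested, 5 fell in siNPM1c cells (MXI1, MGA, MLX, MXD4 and MYC), 1 rose (MNT), and MAX, MXD1 and MXD3 did not pass the threshold, an adjusted p under 0.05 (quasi-likelihood test of edgeR, Benjamini-Hochberg over all 12938 genes tested). The background is high, since 42.7% of all tested genes were called, 21.3% higher and 21.4% lower. The 2 groups of libraries did not overlap in CPM for 7 of the 9 members, against 49.2% of all tested genes. The median log2 fold change over the tested members was -0.15, against -0.01 over all genes. The changes were small: no member reached an absolute log2 fold change of 0.5, while the median absolute change of all called genes was 0.43. For MXI1, 28.7% of the tested genes had a larger absolute change. The members had 134 to 1137 counts per library, apart from MYCN, and counting error alone is then 2.97% to 8.64% of a single value.

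Directions are relative to TMM scaling. Without TMM, using library sizes alone, ribosomal RNA is part of the depth. The median log2 fold change of all genes then shifted by -0.47, and all 9 tested members were called lower, MNT (-0.27), MAX (-0.25) and MXD3 (-0.36) with a changed sign. Set against the median of all genes under that scaling, MNT had 0.21, MAX 0.23, MXI1 -0.39, MGA -0.36 and MLX -0.35 on the log2 scale.

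**Figure D1:**
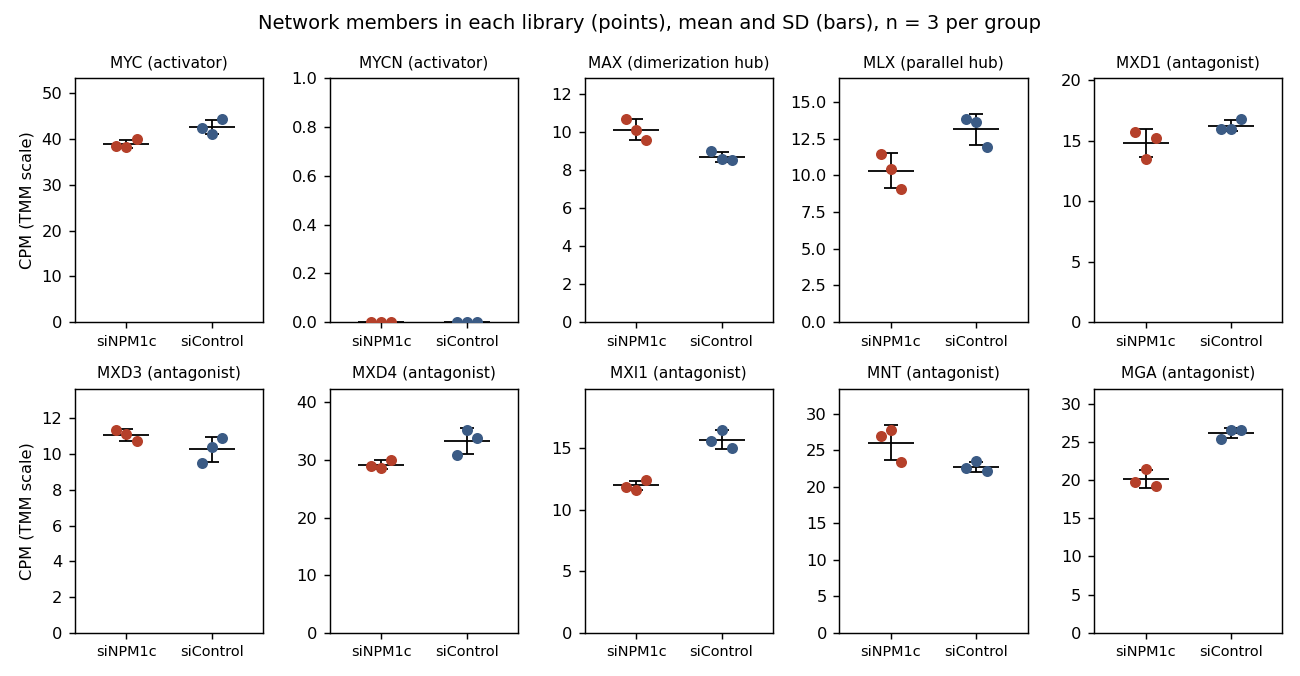
CPM on the TMM scale for the 10 members, with siNPM1c libraries left of siControl libraries in each panel; points are libraries and bars are means with SD (n = 3). MXI1, MGA, MLX, MXD4, MXD1 and MYC were lower in all 3 siNPM1c libraries than in any siControl library, and MAX was higher. MXD1 and MAX were not called. MNT was higher on average, MAX and MNT turned lower with library sizes alone, and MYCN had no counts.

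MYC, the broadly expressed activator, lies at chromosome 8, 127735434 to 127741434 in GENCODE 29 (GRCh38). It had 38.5, 38.3 and 40.0 CPM in siNPM1c replicates 1, 2 and 3, against 42.4, 41.2 and 44.4 CPM in the siControl replicates. The groups did not overlap, although the nearest values, 40.0 and 41.2 CPM, were close. MYC fell by 0.13 on the log2 scale (SE 0.05), a change of -8.49%, with an adjusted p of 0.0271. The call was lost with DESeq2 (adjusted p = 0.0792), without siNPM1c replicate 1 (0.0840), without siNPM1c replicate 2 (0.145) and without siControl replicate 3 (0.143), while a correction for GC content made the log2 fold change -0.20. The 95% interval of the log2 fold change ran from -0.23 to -0.03.

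MYCN, the activator of neural and embryonic tissue that can replace MYC, had 0 counts in all 6 libraries. A count of 0 allows up to 3 counts, which is 0.144 to 0.226 CPM in siNPM1c libraries and 0.109 to 0.167 CPM in siControl libraries. No fold change is given for it.

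MAX, the obligate partner of the activators and of most of the antagonists, had 10.7, 10.1 and 9.59 CPM in siNPM1c replicates, against 9.01, 8.59 and 8.51 CPM in siControl replicates. All siNPM1c values were above all siControl values, but the adjusted p was 0.0670 (log2 fold change 0.22 ± 0.10, SE). MAX passed the threshold when only protein-coding genes were analysed (adjusted p = 0.0492), and its value changed sign with library sizes alone, as given above.

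MXI1, an antagonist that recruits SIN3 corepressors, had 11.9, 11.6 and 12.4 CPM in siNPM1c replicates, against 15.6, 16.5 and 15.02 CPM in siControl replicates. The groups were well apart, and MXI1 was 1.32-fold lower (log2 fold change -0.40 ± 0.08, SE, adjusted p = 1.71e-05). The call was kept under all 16 alternatives, with log2 fold changes from -0.87 with library sizes alone to -0.35 with the GC correction. MXI1, MLX and MGA changed by similar amounts, and their order turned with the setting: MLX had -0.39 with the GC correction, and MGA had -0.42 against -0.37 for MXI1 without siNPM1c replicate 2.

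MGA, a large protein that carries a T-box as well as the MAX-pairing domain and anchors a Polycomb complex, had 19.8, 21.5 and 19.2 CPM in siNPM1c replicates, against 25.4, 26.6 and 26.6 CPM in siControl replicates. No values overlapped, and MGA was 1.29-fold lower (-0.37 ± 0.07, SE, adjusted p = 4.12e-07). Its exons have a GC content of 42.8%, and the GC correction brought the log2 fold change to -0.22 (adjusted p = 0.0029) with the call kept.

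MXD4, an antagonist of the MXD group, had 28.96, 28.6 and 30.1 CPM in siNPM1c replicates, against 30.8, 35.2 and 33.9 CPM in siControl replicates. The highest siNPM1c value lay just under the lowest siControl value. MXD4 was 1.15-fold lower (-0.20 ± 0.06, SE, adjusted p = 0.0018), and the call was lost without siControl replicate 2 (-0.15, adjusted p = 0.0573).

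MNT, the most widely expressed of the antagonists, was the only member called higher on the TMM scale, with its sign turned by library sizes alone. It had 26.9, 27.8 and 23.3 CPM in siNPM1c replicates, against 22.6, 23.4 and 22.1 CPM in siControl replicates. The groups overlapped, because siNPM1c replicate 3 lay below siControl replicate 2. The log2 fold change was 0.20 ± 0.06 (SE, adjusted p = 0.0066). It was 0.14 without siNPM1c replicate 2 (adjusted p = 0.133) and 0.09 with the GC correction (adjusted p = 0.243), both short of the threshold, and the exons of MNT have a GC content of 63.6%.

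MXD1, the antagonist known for its induction in maturing myeloid cells, had 15.7, 13.5 and 15.3 CPM in siNPM1c replicates, against 16.01, 15.97 and 16.8 CPM in siControl replicates. The siNPM1c values were all lower, by a margin that did not pass the test (-0.15 ± 0.08, SE, adjusted p = 0.126). The 95% interval ran from -0.30 to 0.01, and without siNPM1c replicate 2 the value was -0.06. Genes of monocytes and granulocytes rose in the same libraries, 11 of 14 tested with 1 lower and a median of 0.52. The share called was 85.7%, against 42.7% of all genes. LYZ, the gene of lysozyme, had 401.5 ± 8.35 against 80.2 ± 0.805 CPM (siNPM1c against siControl, SD, n = 3 each). In the same order, CSF1R, the receptor of macrophage colony-stimulating factor, had 19.5 ± 1.43 against 4.76 ± 0.114 CPM. PRTN3, a granule protease, had 51.9 ± 0.608 against 17.4 ± 1.48 CPM. FCN1, the gene of the monocyte protein ficolin, fell by 0.67 (SE 0.22), a call lost without siNPM1c replicate 2 (adjusted p = 0.0756) and without siControl replicate 1 (0.0611). The summed level of the monocyte and granulocyte genes was 1125 to 1158 CPM in siNPM1c libraries and 594 to 610.5 CPM in siControl libraries. The part of this shift in the values of MXD1 was not tested.

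MXD3, an antagonist that is known to be present in dividing cells, had 11.4, 11.1 and 10.7 CPM in siNPM1c replicates, against 9.51, 10.4 and 10.9 CPM in siControl replicates. The groups overlapped and the log2 fold change of 0.11 ± 0.09 (SE) had an adjusted p of 0.378. It was -0.01 with the GC correction. Cell cycle genes fell in these libraries, 14 of 18 tested with 0 higher and a median of -0.42 (77.8% called, against 42.7% of all genes). The 3 with the smallest p were the topoisomerase gene TOP2A (-0.69 ± 0.06, SE), the mitotic kinase gene CDK1 (-1.32 ± 0.17) and the proliferation marker MKI67 (-0.37 ± 0.05). MXD3 shares 18% of its exon bases with RAB24 on the same strand and 22.5% with PRELID1 on the other in GENCODE 29, and how the counting divided such reads was not given in the sources used here. RAB24 rose by 0.33 ± 0.05 log2 (SE, adjusted p = 8.89e-08) and PRELID1 had 0.08 ± 0.08 (adjusted p = 0.488), so the value of MXD3 is uncertain.

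MLX had 11.4, 10.4 and 9.05 CPM in siNPM1c replicates, against 13.8, 13.6 and 11.95 CPM in siControl replicates. All siNPM1c values were lower, and MLX was 1.28-fold lower (-0.36 ± 0.09, SE, adjusted p = 0.000547). The call was kept under all 16 alternatives. The opposite-strand gene PSMC3IP overlaps 18.1% of the exon bases of MLX but had only 1.33 ± 0.0767 CPM in siNPM1c libraries and 1.32 ± 0.363 CPM in siControl libraries. Of the remaining overlaps, an antisense transcript covers 12.2% of the exon bases of MNT, and those of MYCN, MAX, MXD1, MXD4, MXI1 and MGA cover 4.4% or less.

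**Figure D2:**
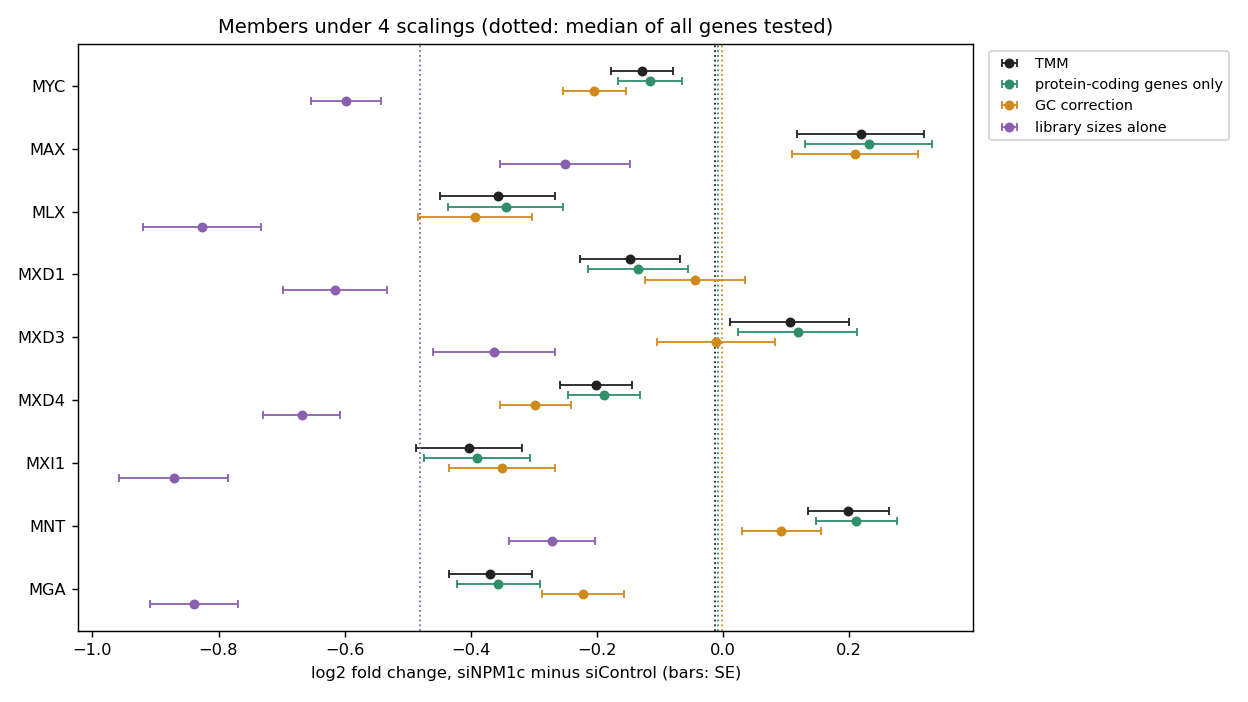
Log2 fold changes (siNPM1c minus siControl) of the 9 tested members with SE under TMM scaling, with protein-coding genes only, with a GC correction and with library sizes alone; dotted lines mark the median of all genes tested under each. MXI1, MGA, MLX, MXD4 and MYC lay below the dotted line under all 4 and MAX and MNT above it, while MXD3 lay on the line with the GC correction. MXD1 also lay below the line under all 4, with the GC correction by less than its SE.

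Per length, MYC was by far the most abundant member. It had 13.0 ± 0.302 CPM per kb of exon in siNPM1c libraries and 14.2 ± 0.535 in siControl libraries (SD, n = 3 each), followed by MXD4 with 4.14 ± 0.107 and 4.72 ± 0.323. MGA was the lowest of the tested members in both groups, with 1.14 ± 0.0657 in siNPM1c libraries and 1.48 ± 0.0402 in siControl libraries. Between these ends the order differed between the groups. In siNPM1c libraries MNT, MXI1, MLX, MXD1, MAX and MXD3 followed MXD4 in that order, from 2.98 ± 0.272 down to 2.15 ± 0.0604 CPM per kb, and each overlapped its neighbour in the order. In siControl libraries the order was MXI1, MLX, MNT, MXD1, MXD3 and MAX, from 3.41 ± 0.163 down to 1.964 ± 0.0607, where MNT overlapped MXD1 and MXD3 overlapped MAX but MXI1, MLX and MNT were separate. Lengths are the union of GENCODE 29 exons, and the isoforms used in these cells were not known.

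**Figure D3:**
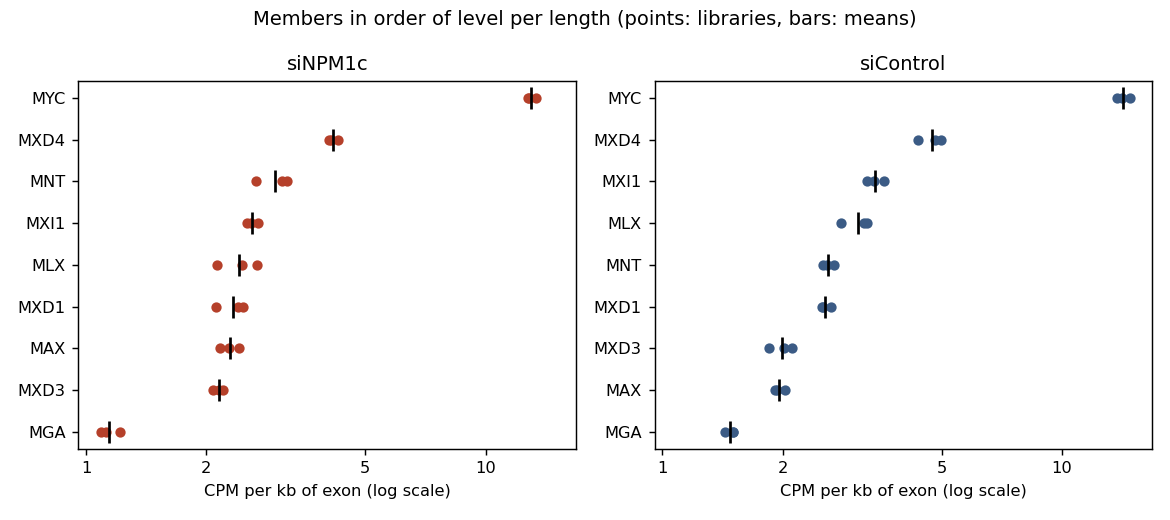
CPM per kb of exon (log axis) for the 9 tested members, ranked within the siNPM1c libraries (left) and the siControl libraries (right); points are libraries and bars are means. MYC stood alone at 13.0 and 14.2, MGA was lowest at 1.14 and 1.48, and MNT ranked above MXI1 in siNPM1c libraries and below it in siControl libraries.

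The balance of activators and antagonists was then read within each library, where scaling between libraries plays no part. The ratio of MYC to the sum of the 6 antagonists, in counts per kb, was 0.824, 0.837 and 0.876 in siNPM1c replicates, against 0.875, 0.793 and 0.877 in siControl replicates. The groups overlapped fully, with a mean of 0.846 ± 0.0271 in siNPM1c libraries and 0.848 ± 0.0477 in siControl libraries (SD, n = 3 each). The mean log2 ratio differed by -0.0030 between them, far less than the spread between replicates. With MXD1, MXD3, MXD4 and MXI1 alone the difference was 0.05, and without length correction 0.0047. No p is given, since the ratio is a score over members chosen with earlier results known.

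The make-up of the antagonist pool did differ. MXI1 gave 16.6%, 16.6% and 17.7% of the summed antagonist counts per kb in siNPM1c replicates, against 21.0%, 20.7% and 19.4% in siControl replicates. MGA gave 7.45% ± 0.453 in siNPM1c libraries and 8.85% ± 0.132 in siControl libraries. MNT gave 19.8%, 20.9% and 17.6% in siNPM1c replicates, against 16.02%, 15.5% and 15.01% in siControl replicates, and MXD3 14.0% ± 0.254 against 11.9% ± 0.575. For these 4 the groups did not overlap. The shares add up to a common total, so a fall of MXI1 and MGA by itself raises the others. In CPM the groups overlapped for MNT and MXD3, and MXD3 was not called. Of all tested genes, 49.2% did not overlap in CPM, and no such figure was computed for shares. The shares of MXD1, 15.2% ± 1.13 in siNPM1c libraries and 15.3% ± 0.648 in siControl libraries, and of MXD4, 27.0% ± 0.901 and 28.1% ± 0.966, overlapped. MXD3 carries the limit given above for overlapping genes, and MXD3, MNT and MGA the dependence on GC content; the shares were not corrected for it.

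The ratios to MAX were read in the same way, MAX itself not being called. MYC was 5.32, 5.60 and 6.15 times MAX per kb in siNPM1c replicates, against 6.94, 7.08 and 7.70 times in siControl replicates. The ratio of MLX to MAX was 1.11, 1.07 and 0.982 in siNPM1c replicates, against 1.599, 1.65 and 1.46 in siControl replicates. Neither ratio overlapped between the groups, and MLX lay closer to MAX in siNPM1c libraries. Lack of overlap is common here: it held in CPM for 49.2% of all tested genes, and no such figure was computed for ratios.

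**Figure D4:**
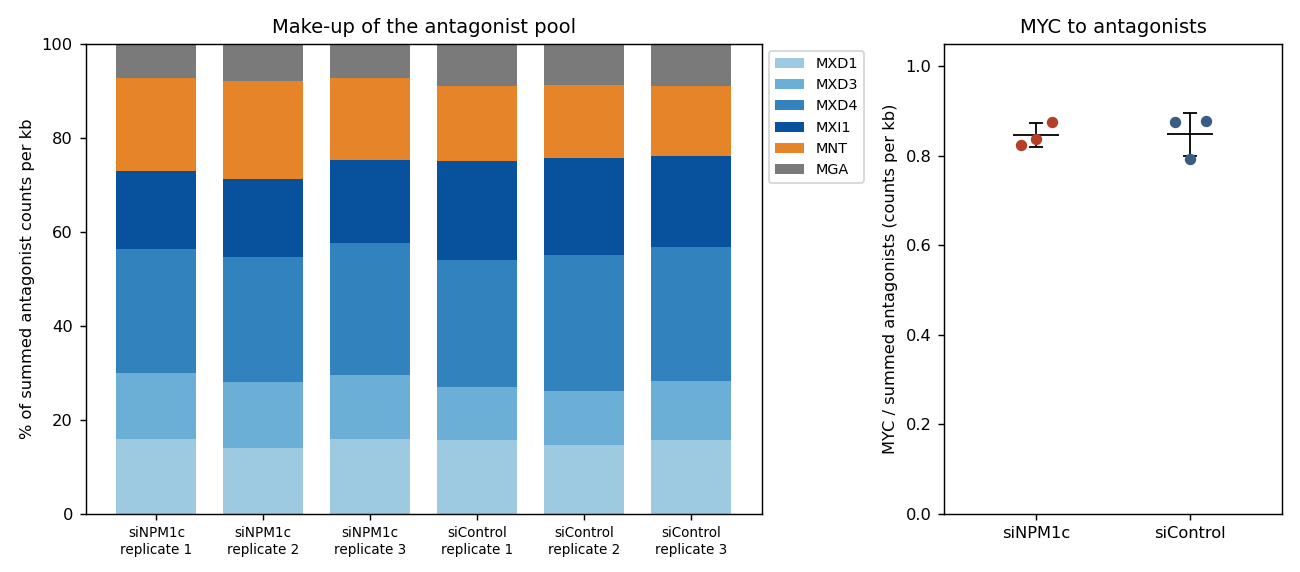
Left, share of each antagonist in the summed antagonist counts per kb, one bar per library, with siNPM1c libraries left of siControl libraries; right, ratio of MYC to that sum, with points for libraries and bars for mean and SD (n = 3). The share of MXI1 was 16.6% to 17.7% in siNPM1c libraries and 19.4% to 21.0% in siControl libraries, while the MYC ratio averaged 0.846 and 0.848.

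Relatives of the members that read E-boxes or bind MYC protein or pair with MLX came next. Among 7 tested, 4 rose and 0 fell, and the median was 0.23 on the log2 scale. The share called was 57.1%, against 42.7% of all genes, where 21.3% were higher and 21.4% lower. MLXIP, the glucose-sensing partner of MLX also called MondoA, had 41.9 ± 1.78 CPM in siNPM1c libraries and 30.2 ± 0.371 CPM in siControl libraries (SD, n = 3 each), a 1.39-fold rise (adjusted p = 1.13e-15). MLXIPL, the related factor ChREBP, rose by 0.23 ± 0.06 log2 (SE), a call lost with the GC correction (0.12, adjusted p = 0.0650). MYCL, the MYC paralogue of dendritic and lung cells, had 5.18 ± 0.536 against 3.66 ± 0.662 CPM (1.44-fold, adjusted p = 0.0021), and without siNPM1c replicate 2 its adjusted p was 0.0505. USF2, an E-box factor outside the network, rose 1.22-fold, while USF1 had 0.07 ± 0.05 (SE), BIN1, a MYC-binding adaptor, 0.19 ± 0.18, and the ubiquitin ligase gene MYCBP2 0.02 ± 0.03. MYCBP was too low to be tested. With library sizes alone the median of these relatives was -0.25, and 0 rose and 4 fell, against 505 and 9253 of all 12938 genes. The calls of MYCL and MLXIP were then lost, at 0.05 and 0.01 log2.

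Targets of MLX with MLXIP gave a small set of 5, of which ARRDC4 was too low to be tested. PFKFB3, which raises the flux of glycolysis, had 86.3 ± 2.13 CPM in siNPM1c libraries and 65.9 ± 4.503 CPM in siControl libraries and rose by 0.40 ± 0.04 log2 (SE, adjusted p = 4.16e-20). TXNIP, an arrestin that restrains glucose uptake, had 118.5 ± 2.84 against 111.0 ± 2.52 CPM, a 1.07-fold rise whose call was lost without siNPM1c replicate 2 (adjusted p = 0.0873) and with no filter beyond 1 count (0.0917). KLF10 (0.08 ± 0.09, SE) and PDK2 (-0.11 ± 0.22) did not pass.

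Coactivators of MYC changed both ways. Of 20 tested, 6 rose and 4 fell, with a median of 0.00 (50.0% called, near the 42.7% of all genes). Without siNPM1c replicate 2 these counts were 5 and 1, and with the GC correction 3 and 4. ZBTB17, the gene of MIZ1 through which MYC represses, rose 1.47-fold (0.56 ± 0.08, SE, adjusted p = 6.85e-11), the elongation kinase gene CDK9 by 0.32 ± 0.07 log2 and the acetyltransferase gene CREBBP by 0.26 ± 0.05. ACTL6A, an actin-related subunit of the TRRAP complexes, was 1.57-fold lower at 3.23 ± 0.0738 CPM in siNPM1c libraries and 5.11 ± 0.476 CPM in siControl libraries. The helicase gene RUVBL1 was 1.22-fold lower, a call lost without siNPM1c replicate 2 (adjusted p = 0.0841), and the cyclin gene CCNT1 fell by 0.29 (SE 0.10), a call lost in 5 alternatives, with adjusted p of 0.0807 with DESeq2, 0.292 with the GC correction, 0.215 without siNPM1c replicate 2 and 0.165 without siControl replicate 2. With library sizes alone 0 of the list were higher and 17 lower, against 505 and 9253 of all 12938 genes.

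Of 19 corepressor genes whose proteins serve the MXD proteins, MXI1 and MNT, 8 fell and 4 rose, with a median of -0.12. The share called was 63.2%, against 42.7% of all genes. Without siNPM1c replicate 2 the counts were 5 and 3, and the median was -0.08 without siNPM1c replicate 1, -0.05 without siNPM1c replicate 3, -0.06 without siControl replicate 3 and -0.07 with the GC correction. The histone-binding subunit gene RBBP7 was 1.58-fold lower, TBL1XR1 of the NCOR complex 1.49-fold and the deacetylase gene HDAC1 1.26-fold, at 24.2 ± 0.829 CPM in siNPM1c libraries and 30.3 ± 0.766 CPM in siControl libraries. SIN3B, a scaffold that the MXD proteins bind, rose 1.15-fold and ARID4B, a further SIN3 complex subunit, 1.31-fold. Of the 12 partners of MGA in its Polycomb complex, 4 fell and 2 rose (50.0% called, near the 42.7% of all genes). With DESeq2, without siNPM1c replicate 1 and without siControl replicate 3, 3 fell and 0 rose. CBX3, a heterochromatin protein gene that the nucleolar target list also holds, had 7.58 ± 0.541 against 13.4 ± 0.612 CPM (1.78-fold lower), HDAC2 was 1.36-fold lower (call lost with the replicate block and GC correction together, adjusted p = 0.0517), and HDAC1, which this list shares with the SIN3 list, fell as given. The Polycomb genes RING1 (0.22 ± 0.08, SE) and YAF2 (0.25 ± 0.10) rose, with calls lost in 8 and 7 of the 16 alternatives and the sign turned with library sizes alone.

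Of 19 genes that act on the stability of the MYC protein, 4 fell and 1 rose (26.3% called, against 42.7% of all genes). With the GC correction 5 fell and 4 rose, and with protein-coding genes only 4 fell and 3 rose. With library sizes alone all 19 fell, where 9253 of all 12938 genes were called lower. Neither the share nor the balance of the list is stable. HUWE1, a ubiquitin ligase of MYC, had 194.5 ± 6.52 CPM in siNPM1c libraries and 228.4 ± 1.04 CPM in siControl libraries (-0.23 ± 0.02, SE, adjusted p = 6.99e-16). The ligase gene FBXL14 fell by 0.45 (SE 0.10) and the deubiquitinase gene USP37 by 0.58 (SE 0.16). GSK3B, the kinase that marks MYC for FBXW7, rose 1.14-fold.

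Genes that MYC is known to activate were examined in 2 lists. In the nucleolar and growth list, after the MSigDB hallmark of MYC targets as recalled and without MYC and NPM1, 19 of 58 tested genes fell and 7 rose, so that 44.8% were called, near the 42.7% of all genes. The median was -0.11. UTP20, of the small-subunit processome, had 3.97 ± 0.754 CPM in siNPM1c libraries and 7.68 ± 1.38 CPM in siControl libraries (1.88-fold lower, adjusted p = 9.38e-10), the ribosome assembly genes WDR43 and WDR74 were 1.87-fold and 1.75-fold lower, and CBX3 is given above. PPAN, also of ribosome assembly, rose 1.46-fold, with 7.35 ± 0.230 against 5.10 ± 0.273 CPM, the pseudouridine synthase gene PUS1 1.22-fold, RRP12 of ribosome export 1.14-fold and the hexokinase gene HK2 1.10-fold. Without siNPM1c replicate 2 the genes called lower were 12 and those called higher 6. With DESeq2 16 genes of the list were called, and with library sizes alone 54, all of them lower.

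The list of nucleotide, polyamine and one-carbon enzymes also holds LDHA and the glycolytic gene ENO1, which do not belong to those pathways. In it, 13 of 28 tested genes fell and 1 rose, with a median of -0.22. That is 50.0% called, against 42.7% of all genes. LDHA, the subunit A gene of lactate dehydrogenase, had 65.2 ± 0.346 CPM in siNPM1c libraries and 102.5 ± 1.605 CPM in siControl libraries (1.57-fold lower, adjusted p = 2.65e-44). The glycolytic gene ENO1 fell by 0.16 (SE 0.02), CAD, which starts pyrimidine synthesis, by 0.23 (SE 0.04), and PRPS1, which makes the ribose phosphate donor of nucleotides, by 0.85 (SE 0.16). PHGDH, which starts serine synthesis, was the gene called higher (0.37 ± 0.13, SE, adjusted p = 0.013), and its call was lost with DESeq2 (adjusted p = 0.0744), without siNPM1c replicate 2 (0.152), without siControl replicate 1 (0.0514) and without siControl replicate 2 (0.0507). The cell cycle genes described above and the share of ribosomal RNA moved in the same libraries, and their part in these counts was not tested.

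The E-box core was found before 15 of the 49 genes of the nucleolar list that have a promoter window (30.6%) and before 7 of 26 enzymes (26.9%). Of the 7 genes of the enzyme list with the core, LDHA among them, 5 fell and 0 rose, with a median of -0.48. ODC1, the first enzyme of polyamine synthesis, had the median value. Of the 19 without the core 7 fell and 1 rose, with a median of -0.16. In the nucleolar list the order was the other way, with a median of -0.05 over 14 tested genes with the core (5 lower, 3 higher) and -0.13 over 34 without it (10 lower, 2 higher). Of all tested genes, 42.7% were called, 21.3% higher and 21.4% lower, and that share was not split by the core. The counts with and without the core are descriptions without a test.

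Of 14 tested genes that MYC is known to repress, 7 rose and 3 fell (71.4% called, against 42.7% of all genes). The median was 0.32 and became -0.15 with library sizes alone. FTH1, the ferritin heavy chain gene, had 68.6 ± 1.16 CPM in siNPM1c libraries and 40.3 ± 0.327 CPM in siControl libraries (1.71-fold higher, adjusted p = 1.24e-42). The myeloid factor gene CEBPD rose 1.32-fold and the antiproliferative gene BTG2 1.30-fold. NDRG1, a stress-response gene, fell by 0.19 (SE 0.02), the cyclin gene CCND1 by 0.30 (SE 0.05) and NDRG2, of the same family, also fell (-0.73 ± 0.18, SE).

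**Figure D5:**
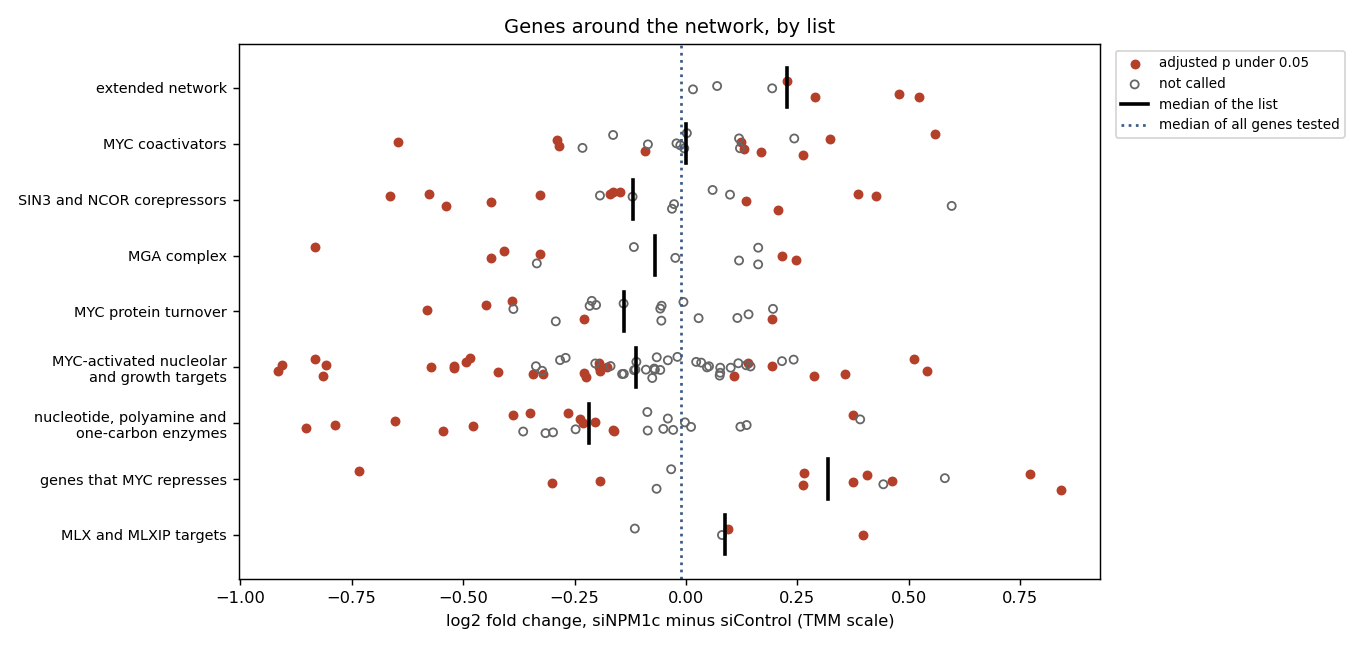
Log2 fold changes (siNPM1c minus siControl, TMM scale) of the tested genes in 9 lists around the network; filled points passed an adjusted p of 0.05, open points did not, black bars are list medians and the dotted line is the median of all genes tested. The medians ran from -0.22 for the nucleotide, polyamine and one-carbon enzymes (a list that includes LDHA and ENO1) to 0.32 for the genes that MYC represses.

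Of the called genes named above and in the marker lists, 22 that were higher on the TMM scale had a negative log2 fold change with library sizes alone, as follows from the shift of -0.47. Among genes whose mean reached 10 CPM or more, the 3 whose levels over the 6 libraries lay nearest to those of MYC, by Euclidean distance of log2 CPM centred on the siControl mean, were RMRP, the RNA of RNase MRP (distance 0.0402), PIGT, a subunit gene of the GPI transamidase (0.0435), and UBQLN1, a ubiquilin gene (0.0439). RMRP fell by 0.12 (SE 0.02, call lost with the replicate block, adjusted p = 0.0592), and PIGT and UBQLN1, at -0.12 ± 0.08 and -0.15 ± 0.08, did not pass the test.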

How the data were processed

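The authors deposited raw counts per Entrez gene for 6 libraries, without normalization. Per the submitters' processing notes, CASAVA 1.8, cutadapt 2.6, STAR 2.7.5a and DESeq2 1.34.0 were used with the builds hg38 and mm10. The counting tool, annotation, strand setting and handling of multiply mapping reads are not given in the sources used here.

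Symbols came from NCBI RefSeq (GRCh38.p14) for 28261 of 28307 genes. Exon lengths, overlaps and GC content came from GENCODE 29, and 97.1% of tested genes had a GC value. Low genes were removed with filterByExpr of edgeR 4.0.16 (R 4.3.3), whose default settings ask for 10 counts per library and 15 in total. After TMM scaling, groups were compared, siNPM1c minus siControl, by the quasi-likelihood test (glmQLFit, robust), two-sided, adjusted over all 12938 genes. The SE was taken from F, as the size of the log2 fold change over the root of F. Intervals are 1.96 SE and so include the spread between libraries, while limits for counts of 0 and the counting errors of single values cover counting error only. Libraries within a group differed beyond sampling noise (chi-square per degree of freedom 1.46 to 2.36), so none was counted as a copy. The chi-square included ribosomal RNA genes, whose share differed between libraries, so it cannot show that the libraries were separate cultures. The common coefficient of variation beyond counting error in the fit was 2.17%. The method was tested on simulated counts with a common dispersion and the same proportions in both groups, apart from a small set of changed genes. Such counts hold no shift in ribosomal RNA, so they do not test the scaling.

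The members, the 13 lists (241 entries) and the naming rule were chosen with earlier results of these data known. Named were NPM1, all members, every gene of lists of 8 or fewer, up to 4 called genes per direction with the smallest p of both target lists that MYC activates, up to 3 of the other lists, and the 3 genes nearest to MYC. Some genes that this rule names are not reported here. RAB24, PRELID1 and PSMC3IP were added for their overlap with members, and ODC1 was added after its value was seen. Of the sequences, the member sites are all that were found, and the 5 target sites were picked by hand. Alternatives were DESeq2 size factors, library sizes alone, protein-coding genes only, no filter beyond 1 count, at least 5 CPM in 3 libraries, DESeq2 1.42.0, voom of limma 3.58.1, the replicate number as a block, a lowess correction for GC content (span 0.3), both together, and leaving out each library.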

Additional observations from a re-analysis of the deposited data

How the results depend on the processing

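The count of called members was 6 and lay between 4 and 9 over 16 alternatives: 9 lower and 0 higher with library sizes alone, 5 lower and 2 higher with protein-coding genes only, 5 lower and 0 higher with the GC correction, and 4 lower and 0 higher without siNPM1c replicate 2, the lowest. MXI1, MGA and MLX were called lower under all 16. Signs turned for MAX (-0.25), MXD3 (-0.36) and MNT (-0.27) with library sizes alone, and for MXD3 with the GC correction (-0.011) and with the replicate block and GC correction together (-0.0085). The cause of the GC dependence was not tested.

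Over all genes, 5522 were called, 9758 with library sizes alone (505 higher and 9253 lower) and 4137 with DESeq2. Of the MYC-activated targets 26 were called, 54 with library sizes alone and 16 with DESeq2. The log2 ratio of MYC to its antagonists differed by -0.05 to 0.02 when single libraries were left out.

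The main fit did not pair the libraries by replicate number, since the labels do not say that a number marks a shared culture or day. Deviations of same-numbered libraries correlated at only 0.019 to 0.038, although each library correlated most with its own number. Ribosomal RNA took 69.4%, 71.1% and 70.2% of counts in siNPM1c replicates 1, 2 and 3, and 63.0%, 64.5% and 63.85% in siControl replicates. This order, and that of total counts, was the same in both groups. These are hints of pairing from the data and not from the design. With the replicate block 5629 of 13323 genes tested were called, 6 members among them, and no call of a member changed. Depth limits MLX, MAX, MXD3 and MXI1 most, whose counting error in the library with the fewest counts was 8.64%, 8.39%, 8.14% and 7.96%.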
